A study of Mus musculus with 10 samples.

Results

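The troponin genes of skeletal and cardiac muscle were followed in the regenerating tibialis anterior (TA) muscle of 10 mice. The members were the genes for troponin T (Tnnt1, Tnnt2 and Tnnt3), troponin I (Tnni1, Tnni2 and Tnni3) and troponin C (Tnnc1 and Tnnc2), chosen by name and found by Ensembl identifier, and all 8 were among the 25700 genes counted. TA muscle was taken from 5 Pax7Cre mice and 5 miR-501KO mice 6 days after an intramuscular injection of cardiotoxin (CTX), a snake toxin that kills muscle fibers and starts regeneration from muscle stem cells. All mice were male, 12 weeks old and of the C57BL/6 strain. Pax7Cre mice carry Cre recombinase in the Pax7 locus, which is active in muscle stem cells, although the labels give their genotype as wild type. The miR-501KO mice are Pax7CremiR-501fl/Y, so that the precursor of miR-501, a microRNA gene on the X chromosome, is deleted by the same Cre in cells of the Pax7 lineage, and the fibers that form from these cells descend from deleted progenitors. The Cre is not inducible. The labels call this genotype miR-501 −/−. The miR-501 gene is not among the genes counted, and the deletion was therefore not checked here. Each library was made from 1 whole TA muscle with poly(A) selection, held between 18609222 and 24753258 counted reads and is given as counts per gene without normalization. RNA from fibers, stem cells, macrophages, connective tissue and vessels is mixed in such a sample, and fewer fibers cannot be told apart from less RNA per fiber.

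Troponin sits on the thin filament of the sarcomere and makes contraction depend on calcium. Troponin C binds calcium, troponin I holds back the interaction of actin and myosin until calcium is bound, and troponin T ties the complex to tropomyosin. Each subunit is encoded by separate genes that are used in fast fibers (Tnnt3, Tnni2 and Tnnc2), in slow fibers (Tnnt1, Tnni1 and Tnnc1, the last also in the heart) and in the heart (Tnnt2 and Tnni3), and embryonic and regenerating skeletal muscle transiently uses Tnnt2 and the slow genes before the adult pattern is reached. The TA is a fast muscle in the adult mouse.

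The troponin T and I genes lie in pairs in the genome. On GRCm38, Tnni1 (slow troponin I, chr1:135779434-135810989) and Tnnt2 (cardiac and embryonic troponin T, chr1:135836354-135852260) lie on the plus strand with 25364 bases and the gene Lad1 between them. The fast pair of Tnni2 (chr7:142441808-142444410) and Tnnt3 (chr7:142498836-142516009), also on the plus strand, is separated by 54425 bases that hold Lsp1. On the minus strand of the same chromosome, Tnnt1 (slow troponin T, chr7:4504570-4516382) and Tnni3 (cardiac troponin I, chr7:4518305-4524229) are 1922 bases apart with no coding gene between them. The troponin C genes are apart, with Tnnc2 (fast, chr2:164777161-164779967) on the minus strand and Tnnc1 (slow and cardiac, chr14:31208312-31211729) on the plus strand. Tnnc2 overlaps Ube2c, a cell cycle gene on the opposite strand, over 592 bases or 74% of its exons, and Ube2c had between 256 and 639 counts per mouse, beside 72217 to 148102 for Tnnc2. Tnni3 shares 86 exon bases with Dnaaf3 on the same strand, and reads in those bases cannot be told apart by strand.

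The microRNA deleted in the miR-501KO mice is shown first, because direct targets often hold the complement of its seed. Mature miR-501-3p lies at chrX:7241270-7241291 on the minus strand of GRCm38.p6 and is given from RefSeq 5′ to 3′ with the seed, bases 2 to 8, in capitals.
mmu-miR-501-3p: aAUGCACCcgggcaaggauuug
The complement of this seed, GGTGCAT, was searched in the annotated 3′ untranslated regions of all transcripts of each gene (GENCODE M21). It was found in 0 of the 8 troponin genes, whose longest such regions measure between 63 bases in Tnni3 and 379 bases in Tnni1. Of the 14074 genes tested that have an annotated 3′ untranslated region, 1159 or 8.24% hold it. These regions of the troponin genes are short, and the absence of the letters says nothing about other ways in which a gene may respond.

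The sequence upstream of the start was set side by side for fast and slow troponin genes and Tnnt2, which did not all move together over the mice. RefSeq start sites (GRCm38.p6) were at hand for 6 members, and Tnni2 and Tnnt3 were not in the table. Tnni1 and Tnnt2 each had 2 windows listed, of which that nearest an annotated GENCODE start was kept. The window kept for Tnni1 lies inside the gene span given above, and the matches hold for the chosen starts only. The 250 bases before the start of the fast gene Tnnc2 (chr2:164779735-164779984, minus strand), of the slow genes Tnni1 (chr1:135799171-135799420, plus), Tnnt1 (chr7:4515976-4516225, minus) and Tnnc1 (chr14:31208062-31208311, plus), and of Tnnt2 (chr1:135836084-135836333, plus) are given 5′ to 3′. Capitals mark matches on either strand to the E-box CANNTG, the core bound by myogenic factors such as MyoD and myogenin, to the MCAT element CATTCC, bound by TEAD factors, and to the TATA box TATAAA.
Tnnc2: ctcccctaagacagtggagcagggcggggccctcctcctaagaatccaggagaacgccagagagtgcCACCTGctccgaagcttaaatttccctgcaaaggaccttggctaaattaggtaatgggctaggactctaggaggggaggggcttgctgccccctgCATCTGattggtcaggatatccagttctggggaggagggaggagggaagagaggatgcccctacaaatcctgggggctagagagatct
Tnni1: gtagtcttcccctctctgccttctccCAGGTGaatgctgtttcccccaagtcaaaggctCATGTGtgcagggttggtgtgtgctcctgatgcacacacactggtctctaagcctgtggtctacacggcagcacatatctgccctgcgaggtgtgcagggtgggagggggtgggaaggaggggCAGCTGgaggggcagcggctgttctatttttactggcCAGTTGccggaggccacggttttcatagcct
Tnnt1: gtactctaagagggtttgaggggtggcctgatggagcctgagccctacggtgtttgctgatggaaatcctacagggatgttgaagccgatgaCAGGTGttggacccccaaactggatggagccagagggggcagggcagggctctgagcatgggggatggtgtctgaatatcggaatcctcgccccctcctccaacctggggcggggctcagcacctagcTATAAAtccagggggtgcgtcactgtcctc
Tnnc1: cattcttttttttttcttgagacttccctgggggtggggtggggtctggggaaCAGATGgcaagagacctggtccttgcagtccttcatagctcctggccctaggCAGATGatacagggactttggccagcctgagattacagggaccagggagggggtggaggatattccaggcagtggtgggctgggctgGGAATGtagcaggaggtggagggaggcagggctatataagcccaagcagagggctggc
Tnnt2: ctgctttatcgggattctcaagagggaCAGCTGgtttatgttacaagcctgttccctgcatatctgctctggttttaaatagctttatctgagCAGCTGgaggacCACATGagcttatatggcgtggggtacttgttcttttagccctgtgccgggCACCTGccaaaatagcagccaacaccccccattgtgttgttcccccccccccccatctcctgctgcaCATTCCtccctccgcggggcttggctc
Tnnt2 and Tnni1 each held 4 E-boxes, Tnnc1 and Tnnc2 each 2, and Tnnt1 and Tnni3 each 1, where 66.2% of 32851 windows of the same length held at least 1. The form CAGCTG, counted among these, was present in Tnnt2 and Tnni1, beside 13% of all windows. An MCAT element was found in Tnnt2 and, as its reverse complement, in Tnnc1 (12.6% of all windows). The exact letters TATAAA were found in Tnnt1 (12.4%). Other forms of the TATA box were not searched, and the near match tatataag in the Tnnc1 window was not counted. The element of estrogen-related receptors, TNAAGGTCA, was in 0 of the 6 windows and in 1.14% of all windows. The MEF2 site and the CArG box were also in 0 of the 6, beside 2.92% and 1.47% of all windows. These matches are letters in a window and not measured binding sites.

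**Figure D1:**
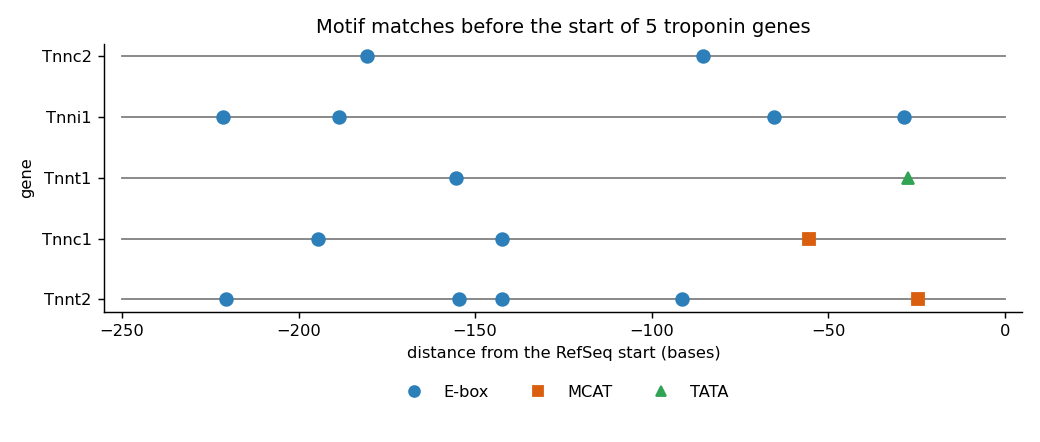
Matches to the E-box, MCAT and TATA motifs in the 250 bases before the RefSeq start of 5 troponin genes; the x axis is the distance from the start in bases and each symbol is the centre of a match. Tnnt2 and Tnni1 carry 4 E-boxes each, and the MCAT matches lie in Tnnc1 and Tnnt2.

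The fast genes dominated each subunit in every mouse. Levels of different genes were compared as TPM, in which counts are divided by the length of a gene's annotated exons and scaled to the same sum in each mouse. Mean TPM over the 10 mice was 16912 ± 2254 (SD) for Tnnc2, 15054 ± 2102 for Tnnt3 and 8580 ± 1466 for Tnni2, and these genes ranked 8, 10 and 13 among 25664 genes. The slow genes followed with 501 ± 93.0 for Tnni1 (rank 222), 499.99 ± 129 for Tnnc1 (rank 223) and 325 ± 62.5 for Tnnt1 (rank 336). Tnnt2 reached 113 ± 23.1 TPM (rank 914) and Tnni3 2.88 ± 0.922 (rank 11743). Each neighbouring pair in this order kept it in 10 of 10 mice except Tnni1 and Tnnc1, of which Tnni1 was the higher in 4 of 10. The ranges over the mice overlapped for Tnnc2 and Tnnt3, for Tnnt3 and Tnni2, and for Tnnc1 and Tnnt1. Together, the 8 genes took between 1.34% and 2.66% of the counts of a Pax7Cre mouse and between 1.95% and 2.28% of those of a miR-501KO mouse.

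The fast genes were highest in Pax7Cre mouse 2 and lowest in Pax7Cre mouse 4. Tnnt3, the fast troponin T, was measured in every mouse with at least 124474 reads. As normalised counts (CPM, scaled to edgeR's TMM library sizes), it stood at 8025, 13261, 9640, 4993 and 8368 in Pax7Cre mice 1 to 5 and at 9858.5, 10354, 9077, 10277 and 8850.1 in miR-501KO mice 1 to 5. The 5 miR-501KO mice lay between the highest and the lowest Pax7Cre mouse. Tnni2, the fast troponin I, gave 4875, 7900.1, 5329, 2385 and 4566 CPM in Pax7Cre mice and 4989.95, 5024, 4845, 5763 and 4539 in miR-501KO mice. Here too, Pax7Cre mouse 2 was the highest and Pax7Cre mouse 4 the lowest of all 10. Tnnc2, the fast calcium sensor, was at 4957, 7815, 5479.85, 2897 and 4761 CPM in Pax7Cre mice and at 5295.5, 5557, 5223, 5986 and 4719 in miR-501KO mice. The same Pax7Cre mice again held both ends of the range, with 2.70 times as much Tnnc2 in the highest as in the lowest in CPM and 1.73 times in TPM. Which genes differed most between Pax7Cre mice depended on the scale. In CPM, the coefficient of variation over Pax7Cre mice was 33.8% for Tnnt3, 39.4% for Tnni2 and 34.1% for Tnnc2, above the 13.2% to 26.2% of the other 5 genes. In TPM it was 19.8%, 25.4% and 19.5% for the fast genes, against 33.7% for Tnnc1, 30.3% for Tnni3, 29.4% for Tnnt2, 26.4% for Tnnt1 and 22.8% for Tnni1. The same mice were at both ends of the fast genes on both scales.

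The slow genes followed another order of mice. Tnni1, the slow and embryonic troponin I, had 722, 529.9, 764, 671 and 701 CPM in Pax7Cre mice and 742, 799, 708, 569 and 627 in miR-501KO mice. Tnnt1, the slow troponin T, was at 261, 205, 305, 288 and 285 CPM in Pax7Cre mice and at 315, 279.9, 264, 267 and 242 in miR-501KO mice. For both genes Pax7Cre mouse 2 was the lowest of the 10 mice. Tnnc1, the slow and cardiac troponin C, had 226, 112, 239.8, 207 and 180.4 CPM in Pax7Cre mice and 239.7, 235, 170.2, 204 and 153 in miR-501KO mice. Pax7Cre mouse 2, which had the most of each fast gene, had the least of each slow gene, and the genotypes overlapped in all of them. Pax7Cre mouse 4, the lowest in the fast genes, was within the range of the other mice for the slow genes in CPM, whereas in TPM it had the highest value of Tnni1 (618), Tnnt1 (433) and Tnnc1 (659).

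Of the cardiac genes, Tnnt2 was well expressed and Tnni3 was close to the limit of counting. Tnnt2, the cardiac and embryonic troponin T and a marker of differentiating myoblasts, was at 348, 224, 379, 355 and 315 CPM in Pax7Cre mice and at 363, 352, 287, 358 and 319.7 in miR-501KO mice. Pax7Cre mouse 2 was again the lowest. Tnni3, the cardiac troponin I, had 45, 35, 45, 62 and 34 reads in Pax7Cre mice and 93, 59, 37, 44 and 42 reads in miR-501KO mice, and so few reads limit its precision. Dnaaf3, which shares exon bases with it, had between 66 and 176 reads per mouse and was also highest in miR-501KO mouse 1. Other genes of heart muscle (Myh6, Myl7, Nppa, Nppb, Ryr2, Mybpc3, Nkx2-5 and Gata4) reached at most 17 reads in any mouse, none of the 8 passed the filter on low counts, and their summed level was between 0.224 and 0.897 CPM in Pax7Cre and between 0.551 and 1.59 in miR-501KO mice.

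**Figure D2:**
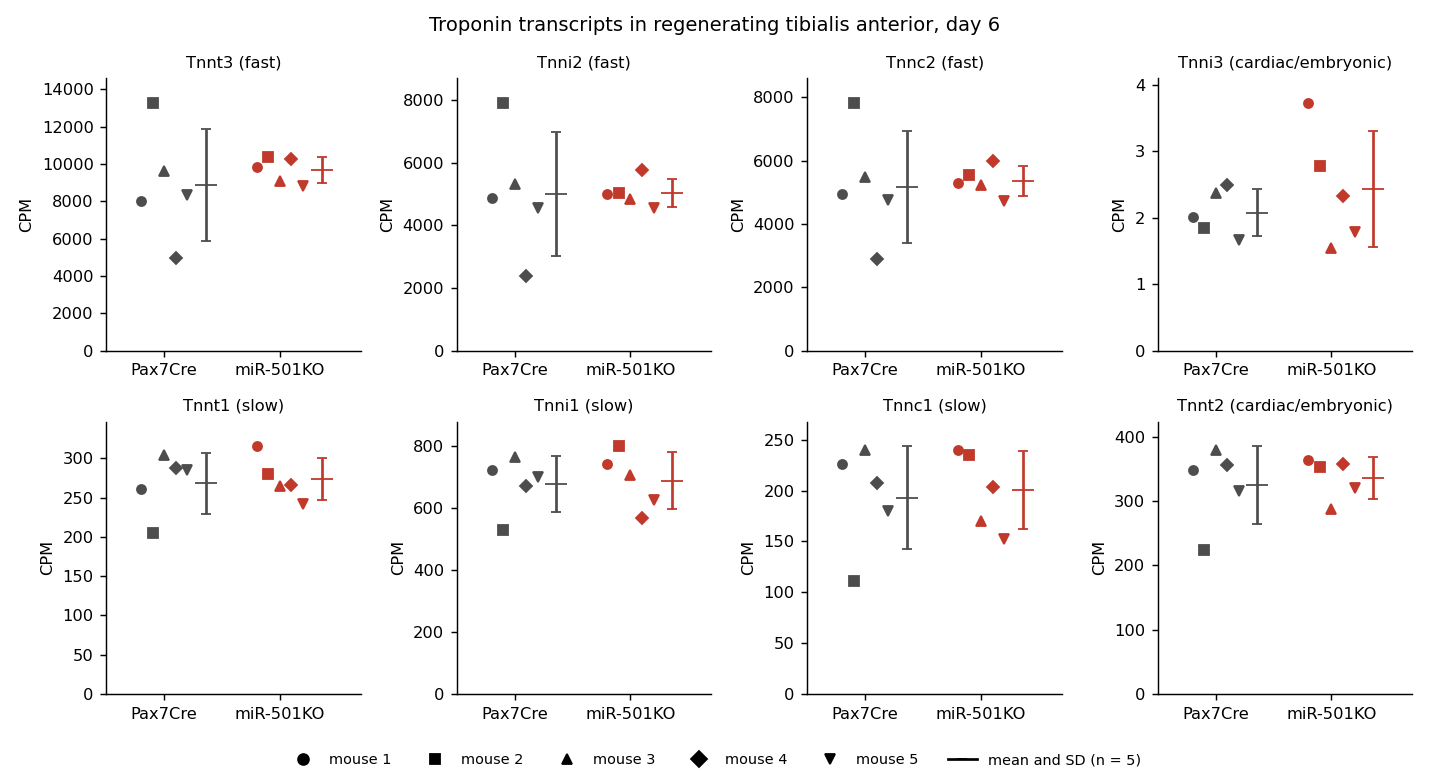
CPM of the 8 troponin genes (y axis, linear from 0) in each of 5 Pax7Cre and 5 miR-501KO mice (x axis); the symbol gives the mouse number, and bars show mean and SD. In Pax7Cre mice, mouse 2 is highest in Tnnt3, Tnni2 and Tnnc2 and lowest in Tnnt1, Tnni1, Tnnc1 and Tnnt2, while the miR-501KO mice lie close together for the fast genes.

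The first comparison asked whether loss of miR-501 in the myogenic lineage changed any troponin gene. No troponin gene passed the test: 0 of 8 had a Benjamini-Hochberg adjusted p under 0.05 in edgeR's quasi-likelihood test, where 0% of the 14410 genes tested were called, and 0 of 8 had an unadjusted p under 0.05, where 1.05% of all genes had one (0.382% higher and 0.666% lower in miR-501KO). In 0 of 8 were the genotypes apart without overlap, which 0.139% of all genes showed. All 8 had passed the filter on low counts. Their log2 fold changes of miR-501KO over Pax7Cre were between 0.01 and 0.22 with a median of 0.05, beside a median of −0.0042 over all genes tested, of which 6906 of 14410 were above 0. The values were 0.13 (standard error 0.222) for Tnnt3, 0.006 (0.245) for Tnni2 and 0.05 (0.217) for Tnnc2 among the fast genes. Slow genes had 0.03 (0.114) for Tnnt1, 0.02 (0.125) for Tnni1 and 0.05 (0.190) for Tnnc1. Tnnt2 had 0.05 (0.133) and Tnni3 0.22 (0.238). The smallest unadjusted p was 0.363, for Tnni3, and each adjusted p was 1.00 in edgeR's quasi-likelihood test. In exact two-sided permutation tests of the CPM, p was between 0.468 for Tnni3 and 0.976 for Tnni2, where the smallest p that 5 mice against 5 can give is 0.00794.

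The intervals of the fold changes were of unequal width. For Tnni1, the 95% interval of the log2 fold change ran from −0.25 to 0.30, for Tnnt1 from −0.22 to 0.27 and for Tnnt2 from −0.24 to 0.34. The fast genes, which varied more between Pax7Cre mice in CPM, had wider intervals, from −0.35 to 0.61 for Tnnt3, from −0.52 to 0.54 for Tnni2 and from −0.42 to 0.52 for Tnnc2. Tnnc1 had an interval from −0.36 to 0.46 and Tnni3 from −0.29 to 0.74. In 17 alternative fits, including those that left out 1 mouse, the lowest unadjusted p of any troponin gene was 0.108, for Tnnt3.

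**Figure D3:**
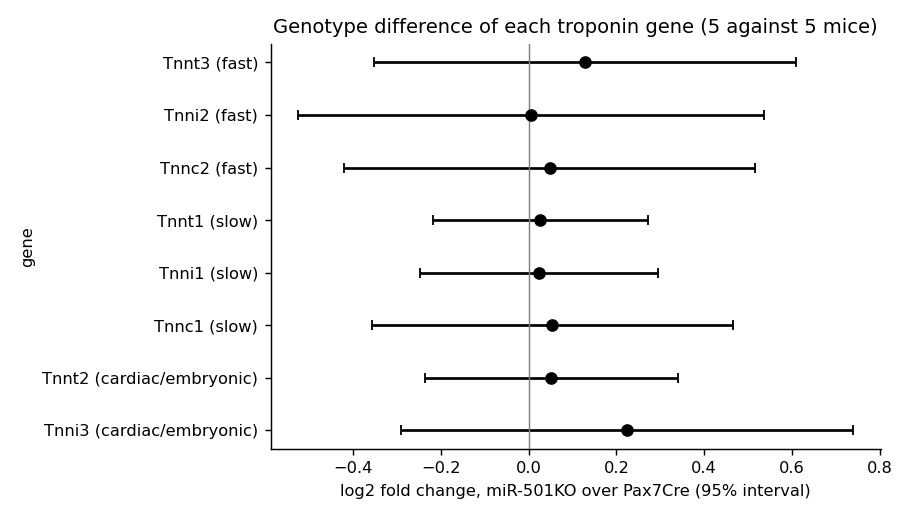
Log2 fold change of miR-501KO over Pax7Cre (x axis) for each troponin gene (y axis); points are estimates of edgeR's quasi-likelihood fit over 5 against 5 mice and bars are 95% intervals. All 8 intervals include 0, and those of Tnnt1, Tnni1 and Tnnt2 are the narrowest.

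Isoform shares within each subunit were then compared between genotypes. The share of a gene was its counts per kilobase of exon divided by the sum over the genes of its subunit in the same mouse. Fast Tnnt3 made up 96.9%, 98.6%, 97.0%, 94.7% and 96.9% of troponin T in Pax7Cre mice and 97.0%, 97.4%, 97.3%, 97.5% and 97.4% in miR-501KO mice. The 5 miR-501KO mice lay inside the range of the Pax7Cre mice. The means were 96.8% ± 1.38 and 97.3% ± 0.174 (SD, n = 5 each; exact two-sided permutation test, p = 0.556, unadjusted over 7 shares tested). The slow Tnnt1 took 2.37% ± 1.01 in Pax7Cre and 1.98% ± 0.162 in miR-501KO mice (exact permutation p = 0.540, n = 5 each), and Tnnt2 took 0.819% ± 0.370 and 0.689% ± 0.0401 (exact permutation p = 0.556, n = 5 each).

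The comparison of troponin T shares rested on single Pax7Cre mice. Without Pax7Cre mouse 2, the difference in share, miR-501KO minus Pax7Cre, was 0.961 percentage points for Tnnt3 (exact permutation p = 0.0159, the smallest that 4 mice against 5 can give), −0.25 points for Tnnt2 (exact permutation p = 0.0159) and −0.711 points for Tnnt1 (exact permutation p = 0.0318). Without Pax7Cre mouse 4, these differences were −0.0044 points for Tnnt3, 0.0091 for Tnnt2 and −0.0046 for Tnnt1. Without both mice, they were 0.405 points for Tnnt3 and −0.104 points for Tnnt2, each with an exact permutation p of 0.0357, the smallest that 3 mice against 5 can give, and −0.301 points for Tnnt1 (exact permutation p = 0.0714). Leaving out both mice was chosen after seeing the data. Pax7Cre mouse 2 had the highest and mouse 4 the lowest share of Tnnt3.

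Troponin I had the largest slow share. Tnni1 made up 5.80%, 2.71%, 5.62%, 10.5% and 6.00% of troponin I in Pax7Cre mice and 5.82%, 6.20%, 5.73%, 3.94% and 5.43% in miR-501KO mice. Pax7Cre mouse 4 had 3.86 times the share of Pax7Cre mouse 2. The means were 6.12% ± 2.78 and 5.42% ± 0.874, and fast Tnni2 held 93.8% ± 2.80 and 94.5% ± 0.879 (exact permutation p = 0.698 for both genes, n = 5 each). The cardiac Tnni3 took 0.0336% ± 0.0198 and 0.0331% ± 0.0115 of troponin I (exact permutation p = 0.976, n = 5 each).

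For troponin C, which has only a fast and a slow gene, Tnnc1 took 3.38%, 1.09%, 3.25%, 5.21% and 2.83% in Pax7Cre mice and 3.36%, 3.15%, 2.44%, 2.55% and 2.43% in miR-501KO mice. The means were 3.15% ± 1.47 and 2.79% ± 0.437, and those of Tnnc2 were 96.8% ± 1.47 and 97.2% ± 0.437 (exact permutation p = 0.603, n = 5 each). In all 3 subunits, Pax7Cre mouse 2 had the smallest and Pax7Cre mouse 4 the largest share that was not fast.

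The height of the small shares depended on the gene length used. The annotated exons of Tnnt2 cover 7752 bases, while its longest principal coding transcript has 1200 bases. With that length for every gene, an alternative added after seeing the data, Tnnt2 took 3.24% ± 1.42 of troponin T in Pax7Cre and 2.75% ± 0.157 in miR-501KO mice. It then stood beside Tnnt1, at 3.11% ± 1.28 and 2.62% ± 0.213. The shares of Tnni1 rose likewise to 9.43% and 8.43%. The order of Tnnt1 and Tnnt2 among the troponin T genes is therefore not fixed by these counts, whereas Tnnt3 held at least 88.6% of troponin T in every mouse with each length and without length.

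**Figure D4:**
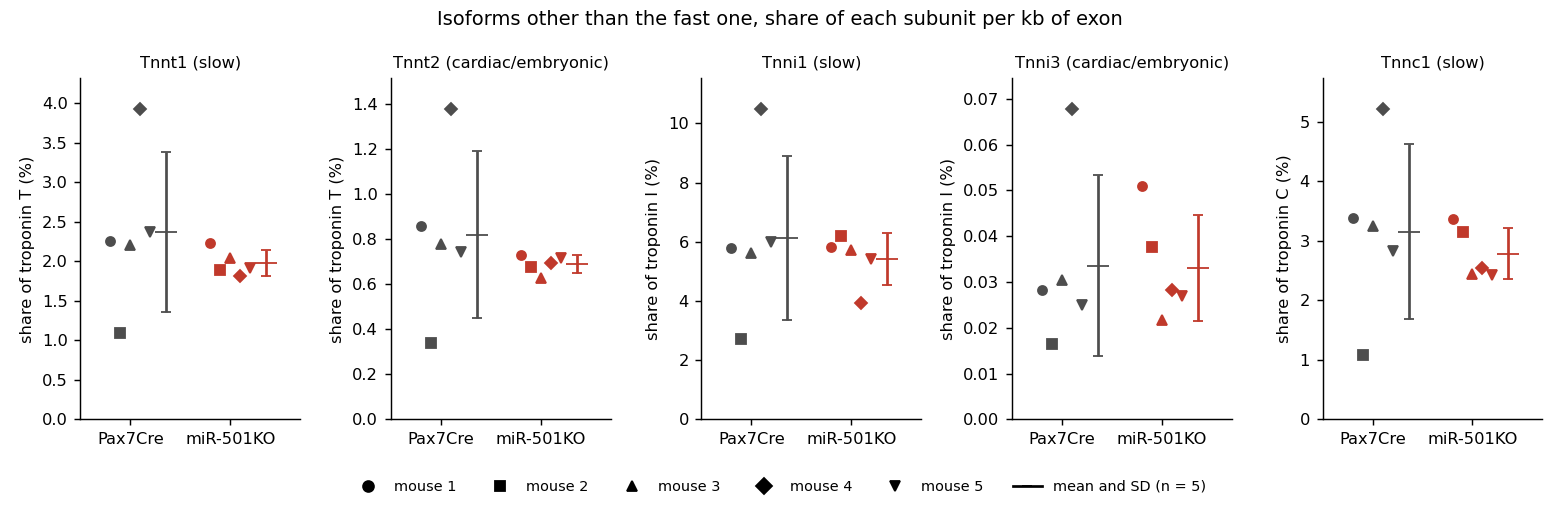
Share of each slow or cardiac gene in its subunit, in percent of counts per kilobase of exon (y axis, linear from 0), in each of 5 Pax7Cre and 5 miR-501KO mice (x axis); the symbol gives the mouse number, and bars show mean and SD. Pax7Cre mouse 4 is the highest and mouse 2 the lowest in each panel, and the miR-501KO mice lie between them.

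A troponin complex holds equal numbers of T, I and C, so the summed transcript levels of the subunits were set side by side as a description. The summed TPM of troponin T was 14798 ± 2750 in Pax7Cre and 16186 ± 828 in miR-501KO mice, that of troponin I 9025.5 ± 2070.3 and 9143.5 ± 337, and that of troponin C 17103 ± 3104 and 17720 ± 906. Per exon length, troponin I had the lowest sum in all 10 mice. Without Pax7Cre mouse 4, the difference miR-501KO minus Pax7Cre turned from 118 to −662.8 TPM for troponin I and from 617.1 to −493.9 TPM for troponin C, and leaving out single mice moved that of troponin T between 447 and 2210 TPM. The ratio of troponin T to troponin C was 0.816, 0.861, 0.887, 0.872 and 0.891 in Pax7Cre mice and 0.937, 0.936, 0.880, 0.867 and 0.950 in miR-501KO mice, with 3 of 5 miR-501KO mice above every Pax7Cre mouse. The groups overlapped, and the means were 0.865 ± 0.0300 and 0.914 ± 0.0375. The ratio of troponin I to troponin C was 0.524 ± 0.0329 and 0.516 ± 0.0116. The levels of the ratios depend on gene length. With the length of the longest transcript, the ratio of troponin T to troponin C was 1.12 ± 0.0394 in Pax7Cre and 1.18 ± 0.0482 in miR-501KO mice, and summed without length the ratio of troponin I to troponin C was between 0.986 and 1.08, so that the order of the subunits is not settled. With the longest transcript, the same 3 of 5 miR-501KO mice were above every Pax7Cre mouse, which is no separate check. Tnnt3 and Tnnc2 made up most of their subunits, so another length scales this ratio nearly alike in every mouse.

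The spread between mice was larger in Pax7Cre than in miR-501KO mice for the fast genes, and it rested on Pax7Cre mice 2 and 4. For log2 CPM, the SD over Pax7Cre mice was 4.93 times that over miR-501KO mice for Tnnt3, 4.95 times for Tnni2 and 4.08 times for Tnnc2. It was larger in Pax7Cre mice for 7 of the 8 troponin genes, and for 79.2% of all genes tested. Without Pax7Cre mice 2 and 4, left out after seeing the data, the ratios were 1.34, 0.888 and 0.829, and the SD was larger in Pax7Cre mice for 1 of 8 troponin genes and for 62.5% of all genes. Tnni3 showed the opposite order with all mice (0.477), and Tnni1 had nearly the same SD in both genotypes (1.04). The difference in spread was not tested.

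Over the 10 mice, the fast genes varied together and the slow genes varied together. The 8 pairs of genes that lie side by side in the genome or form a fast or slow complex were tested by permutation with adjustment over these pairs. Tnni2 and Tnnc2 had a Pearson r of 0.994 between their log2 CPM (n = 10, permutation p = 2e-05, the smallest that 100000 resamples can give, adjusted p = 8e-05) and a Spearman rho of 0.976 (permutation p = 4e-05, adjusted p = 0.00032). For Tnnt3 and Tnnc2, r was 0.982 (n = 10, permutation p = 2e-05, adjusted p = 8e-05) and rho 0.927 (permutation p = 0.0002, adjusted p = 0.0008). The genomic neighbours Tnni2 and Tnnt3 had r = 0.970 (n = 10, permutation p = 0.0004, adjusted p = 0.00107) and rho = 0.855 (permutation p = 0.00242, adjusted p = 0.00645). Without the 2 mice farthest from the median, Pax7Cre mice 2 and 4 for each of these pairs, r was 0.942, 0.844 and 0.687 in the same order (exact permutation p = 0.000992, 0.00903 and 0.0475, n = 8).

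Among the slow genes, Tnnt1 and Tnnc1 had r = 0.886 (n = 10, permutation p = 0.0033, adjusted p = 0.0066) and rho = 0.782 (permutation p = 0.0109, adjusted p = 0.0174). Without Pax7Cre mouse 2 and miR-501KO mouse 1, r was 0.653 (exact permutation p = 0.0847, n = 8), no longer past the threshold at this n. Tnni1 and Tnnc1 had r = 0.773 (n = 10, permutation p = 0.0191, adjusted p = 0.0254) and rho = 0.818 (permutation p = 0.00592, adjusted p = 0.0118), and r without Pax7Cre mouse 2 and miR-501KO mouse 4 was 0.807 (exact permutation p = 0.0173, n = 8). For Tnni1 and Tnnt1, r was 0.766 (n = 10, permutation p = 0.0171, adjusted p = 0.0254) and rho 0.576 (permutation p = 0.0865, adjusted p = 0.0989), and without the same mice r was 0.592 (exact permutation p = 0.122, n = 8), also no longer past the threshold. The slow pairs were weaker without Pax7Cre mouse 2 alone, with r of 0.710 for Tnnt1 and Tnnc1, 0.547 for Tnni1 and Tnnc1 and 0.532 for Tnni1 and Tnnt1. Without Pax7Cre mice 2 and 4, these values were 0.714, 0.558 and 0.567, and in the 5 miR-501KO mice alone 0.877, 0.505 and 0.561 in the same order, all given as a description.

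The remaining pairs of genomic neighbours did not pass the test. Tnni1 and Tnnt2 had r = 0.622 (n = 10, permutation p = 0.0914, adjusted p = 0.0914) and rho = 0.467 (permutation p = 0.179, adjusted p = 0.179), and r without the 2 farthest mice was 0.459 (exact permutation p = 0.260, n = 8). Tnni3 and Tnnt1 had r = 0.584 (n = 10, permutation p = 0.0549, adjusted p = 0.0627) and rho = 0.624 (permutation p = 0.0621, adjusted p = 0.0828), and r without the 2 farthest mice was 0.497 (exact permutation p = 0.215, n = 8). With the genotype means taken out, r of the 8 pairs was between 0.579 and 0.995.

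Likewise, the correlations of Tnnt2 and those between fast and slow genes depended on the mice included. As a description over the 10 mice, r of Tnnt2 was 0.934 with Tnnc1, 0.843 with Tnnt1, 0.622 with Tnni1 and −0.45 with Tnnt3. Without Pax7Cre mouse 2, these values were 0.823, 0.547, 0.151 and 0.015 in the same order. In the 5 miR-501KO mice alone they were 0.779, 0.566, 0.016 and 0.803. All 12 pairs of a fast gene with a slow gene or Tnnt2 had a negative r, between −0.50 and −0.28. These negative values rested on Pax7Cre mouse 2, without which they lay between −0.07 and 0.16. Within genotypes, they were between −0.68 and −0.43 in the 5 Pax7Cre mice and between −0.39 and 0.87 in the 5 miR-501KO mice.

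**Figure D5:**
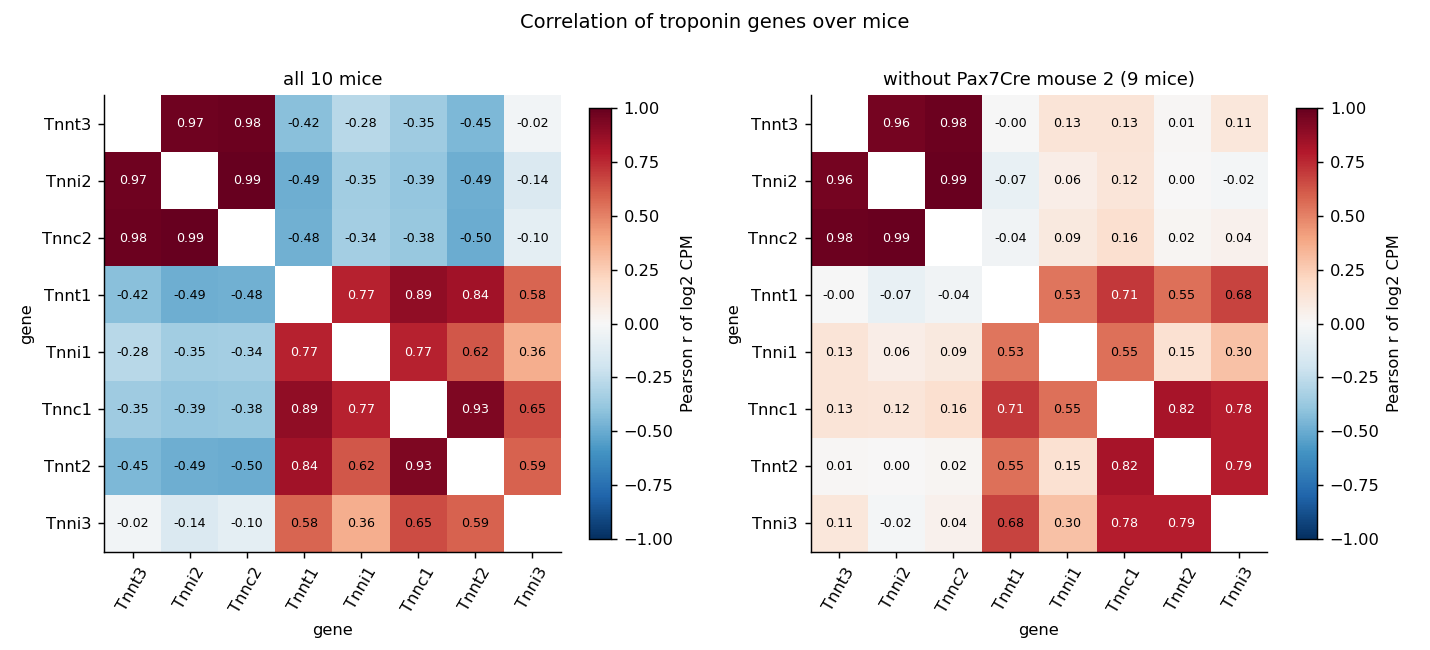
Pearson r of log2 CPM between troponin genes (both axes), over all 10 mice on the left and without Pax7Cre mouse 2 on the right; red is positive and blue negative. The fast genes stay together on both sides, with r of at least 0.96, while the negative values between fast and slow genes on the left are near 0 on the right.

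A score of other genes of mature fibers was highest and lowest in the same mice as the fast troponins, with a looser order between, but single genes departed from this. The score over 20 such genes, among them Ckm (muscle creatine kinase), Pygm (muscle glycogen phosphorylase) and Pvalb (a calcium buffer of fast fibers), was the mean log2 CPM of the genes, each centred over the mice. Of these genes, 0 of 20 reached an unadjusted p under 0.05 between genotypes. The score was −0.17, 0.81, −0.36, −0.67 and 0.01 in Pax7Cre mice and −0.10, −0.05, −0.02, 0.45 and 0.10 in miR-501KO mice. Of the 20 genes, 18 had their highest CPM in Pax7Cre mouse 2, 14 their lowest in Pax7Cre mouse 4, and 13 both, where 23.3%, 19.4% and 10.8% of all genes tested did. Pygm, for example, was at 989.6 CPM in Pax7Cre mouse 4, while its lowest value was 890.7. Pax7Cre mouse 3, with 5329 CPM of Tnni2, had the second lowest score, and miR-501KO mouse 2, with 10354 CPM of Tnnt3, a score near 0. Over the 10 mice, r of the score was 0.81 with Tnnt3, 0.83 with Tnni2 and 0.83 with Tnnc2, and −0.75 with Tnnt1, −0.73 with Tnni1, −0.70 with Tnnc1 and −0.70 with Tnnt2. These values share libraries and are given without a test. Pax7Cre mouse 2 had the highest score, the most of each fast gene and the least of Tnnt1, Tnni1, Tnnc1 and Tnnt2. No r of the score without this mouse is given. The part of fiber maturity in the differences between mice was not tested.

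Partners of troponin on the thin filament and genes of calcium handling did not pass the test either. Of 10 thin filament genes, 0 reached an unadjusted p under 0.05 and 7 had a log2 fold change above 0, with a median of 0.05, where 6906 of all 14410 genes tested were above 0. The 3 with the smallest p were Actc1 (cardiac actin, used in embryonic and regenerating fibers; 0.18), Lmod2 (a leiomodin; −0.12) and Lmod3 (a leiomodin of skeletal muscle; 0.07). Of 12 calcium handling genes, which release, store and pump calcium, 0 reached this p and 9 were above 0 with a median of 0.02, and Sln (sarcolipin, which inhibits the calcium pump) had −0.15. Of 7 fast myosin and related genes, 0 reached it and 6 were above 0, with a median of 0.13. Their summed level was highest in Pax7Cre mouse 2 (49327 CPM) and lowest in Pax7Cre mouse 4 (17764 CPM).

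Slow troponins were present at higher levels than the slow myosin chains, but not than every gene of the slow list. Per exon length, Myh7, the slow and cardiac myosin heavy chain, was between 0.456 and 1.42 TPM, Myl2, its regulatory light chain, between 0.707 and 3.88, and Myl3, its essential light chain, between 1.37 and 11.8, beside 313 to 618 TPM of Tnni1 and 198 to 433 TPM of Tnnt1. Mybpc1, the slow myosin binding protein C, was at 868 to 1222 TPM, above every slow troponin, Myoz2, a Z-disc protein, at 90.2 to 155 TPM, and Tpm3, the slow tropomyosin, at 48.2 to 98.5 TPM. Of the 6 slow myosin and related genes, 0 reached an unadjusted p under 0.05 and 5 were above 0. The developmental myosin Myh3 was between 251 and 732 TPM, with r = 0.78 with Tnni1 and 0.70 with Tnnt2 over the 10 mice. Myh8, the perinatal myosin, was between 210.4 and 404 TPM, with r = 0.51 with Tnni1 and 0.056 with Tnnt2, and Actc1 had 0.34 and −0.24. Of 10 genes of developing fibers, 0 reached an unadjusted p under 0.05 and 6 were above 0 with a median of 0.03. Myog, the transcription factor of myoblast differentiation, had r = 0.82 with Tnnt2 and −0.73 with Tnnt3.

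Of the adult fast myosins, Myh4 (the IIB chain) was at 5143 ± 2371 CPM in Pax7Cre and 5009.99 ± 994 in miR-501KO mice, Myh1 (the IIX chain) at 3607 ± 1446 and 4557 ± 683, and Myh2 (the IIA chain) at 142 ± 141 and 162 ± 82.5. Their log2 fold changes were −0.04, 0.34 and 0.19, with an unadjusted p of at least 0.183 in edgeR's quasi-likelihood test. These paralogs are alike in sequence, and how reads that match several genes were counted is not given in the sources used here.

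Of 17 factors known to control troponin or fiber type genes, 0 reached an unadjusted p under 0.05, 8 were above 0 and the median was −0.03. Eya1, a transcriptional cofactor of the fast gene programme, had −0.23, and Prox1, a factor of slow fibers, −0.08. Esrrg, the estrogen-related receptor gamma, was counted with 83 to 254 reads. Its log2 fold change was −0.15 with a standard error of 0.294, and it had r = −0.92 with Tnni1 over the 10 mice, −0.85 without Pax7Cre mouse 2 and −0.94 within each genotype, as a description. Over the 10 mice, r with Tnni1 was also −0.90 for Ppargc1a, −0.87 for Esrra and −0.83 for Eya1. Of the 17 factors, 13 had r below 0 with Tnni1, with values from −0.92 to 0.56, and 15 without Pax7Cre mouse 2. The highest value, 0.56 for Myog, was −0.03 without this mouse.

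Outside the 8 members, the genes most like single troponins were sought among 11620 genes with a mean of at least 100 reads. For Tnnt3, the highest r of log2 CPM over the 10 mice was with Grpel2 (0.993), a mitochondrial co-chaperone, Tpm1 (0.982), a tropomyosin of the thin filament, and Smpx (0.968), a small muscular protein. These were 0.990, 0.977 and 0.956 without Pax7Cre mouse 2. For Tnni1 they were Mbd4 (0.954), a DNA repair glycosylase, Arf4 (0.940) and Stx5a (0.934), both of vesicle traffic, and for Tnnt2 Akr1b8 (0.961), an aldo-keto reductase, Gmds (0.938), an enzyme of GDP-fucose synthesis, and Cip2a (0.934), an inhibitor of protein phosphatase 2A. Without Pax7Cre mouse 2, the 3 genes for Tnnt2 had r between 0.747 and 0.863.

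Genes of other cell types were counted beside the troponins. In the lists for smooth muscle (6 genes tested), macrophages (9), endothelium (5), connective tissue (7), Schwann cells (4) and satellite cells (4), 0 genes reached an unadjusted p under 0.05 in either direction. The summed level of the macrophage list was between 6134 and 8166 CPM in Pax7Cre and between 6230.4 and 7381 in miR-501KO mice, that of connective tissue between 13281 and 18382 and between 14481 and 17471, and that of satellite cells between 131 and 159 and between 134 and 151, with none of their markers at 0 in all mice. Over the 10 mice, r of the summed level with Tnnt3 was −0.25 for macrophages, −0.53 for connective tissue, −0.66 for satellite cells, 0.40 for endothelium, 0.54 for smooth muscle and 0.86 for Schwann cells, whose summed level was between 11.4 and 31.3 CPM. Single genes of a list often went apart from its sum. Of the smooth muscle genes, 3 of 6 had r below 0 with Tnnt3, among them Acta2 (smooth muscle actin; −0.63) and Tagln (transgelin; −0.67), while most of the sum was Des (desmin, which muscle fibers also express), at 2226 to 3373 CPM and r = 0.71. Of the macrophage genes, 8 of 9 had r below 0, with a median of −0.46 and the lowest value for Csf1r (the receptor of a macrophage growth factor; −0.95), and Cd74 had 0.29. Of the connective tissue genes, 4 of 7 had r below 0, from −0.73 for Col1a1 (a collagen) to 0.87 for Dcn (decorin). For satellite cells 4 of 4 tested genes, for endothelium 1 of 5 and for Schwann cells 1 of 4 were below 0. The part of these cells in the differences between mice was not tested.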

How the data were processed

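RNA of 10 TA muscles was sequenced as 100 bp single-end reads. The authors aligned the reads with STAR, using an annotation they call ENCODE release 91, and deposited raw counts per gene and mouse. The submitters' processing notes also name featureCounts, R 3.5.1 and GRCm38.p5, and the handling of strand and of reads matching several genes is not given in the sources used here. Of 25700 gene identifiers, 25664 matched GENCODE M21, which gave symbols, positions and exon lengths. In R 4.3.3, edgeR 4.0.16 applied TMM factors, filterByExpr (minimum count 10, minimum total 15; 14410 genes kept) and the quasi-likelihood test of genotype, with Benjamini-Hochberg adjustment over all genes tested. Correlations used log2 CPM with a prior count of 2. SciPy 1.17.1 ran the permutation tests, which are two-sided. DESeq2 1.42.0 served as an alternative. The fit was tested on simulated counts. The deposited counts say nothing of batches. Members and gene lists were chosen with earlier results of these data known. All 8 members are named, and from 14 lists at most the 3 genes with the smallest p plus Myh7, Myh3, Myh8, Myh4, Myh1, Myh2 and Esrrg. Ckm, Pygm, Pvalb, Myl2, Myl3, Mybpc1, Myog, Des, Col1a1, Esrra and Ppargc1a were added to these names once their values were known. So were the genomic neighbours of members. The 8 heart muscle genes, which were below the filter and have no p, were also added. Of the genes this rule names, 1 is not reported here. The genes most like Tnnt3, Tnni1 and Tnnt2 are the 3 outside the members with the highest r for each. Equally numbered mice were not treated as pairs.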

Additional observations from a re-analysis of the deposited data

Results flagged for a closer look

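In groups of 5 mice, a mouse was singled out where its gap to the nearest other mouse exceeded 0.71 of the range of its group (Dixon's 95% criterion). This held in 2 of 40 groups of troponin values, and chance gives about 2. The share of Tnni3 in troponin I was 0.0677% in Pax7Cre mouse 4, beside 0.0165% to 0.0305% in the other Pax7Cre mice, and rests on 62 reads. The ratio of troponin I to troponin C was 0.466 in the same mouse, beside 0.530 to 0.549 in the other Pax7Cre mice. In this mouse Tnni2 was at 2385 CPM and Tnnc2 at 2897 CPM, the lowest value of both genes among the 10 mice.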

How the results depend on the processing

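All 8 troponin genes kept the direction of their log2 fold change in the 7 alternative fits to all mice, and 0 genes had an adjusted p under 0.05 in any fit. At an unadjusted p under 0.05, DESeq2's Wald test called 52 genes higher and 98 lower, the replicate block 87 higher and 102 lower, no filter 153 and 159, and at least 10 counts in every mouse 36 higher. Leaving out single mice gave 39 to 267 higher and 59 to 242 lower genes, with 267 and 186 without Pax7Cre mouse 2, 228 and 242 without Pax7Cre mouse 4, and 59 lower without miR-501KO mouse 1. Leaving out single mice turned the direction of 15 of 80 log2 fold changes, whose values ranged from −0.058 to 0.076 for Tnnt1, −0.059 to 0.11 for Tnnt2, −0.021 to 0.32 for Tnnt3, −0.055 to 0.086 for Tnni1, −0.17 to 0.23 for Tnni2, −0.093 to 0.14 for Tnnc1 and −0.10 to 0.24 for Tnnc2. Tnni3 stayed above 0, from 0.012 without miR-501KO mouse 1 to 0.35. Differences in share, in percentage points, ranged from −0.711 to −0.0046 for Tnnt1, −0.25 to 0.0091 for Tnnt2, −0.0044 to 0.961 for Tnnt3, −1.55 to 0.389 for Tnni1, −0.397 to 1.56 for Tnni2, −0.0049 to 0.0081 for Tnni3 and −0.149 to 0.882 for Tnnc2. Without Pax7Cre mice 2 and 4 together, they were −0.104 for Tnnt2, 0.405 for Tnnt3 and 0.0052 for Tnni3, and counts without length gave 0.00037 for Tnni3 and a genotype difference of 0.0901 in the ratio of troponin T to C. Without the 2 farthest mice, r was 0.592 for Tnni1 and Tnnt1 and 0.653 for Tnnt1 and Tnnc1, no longer past the threshold. Equally numbered mice were not taken as pairs, since the correlation of their deviations was 0.337, −0.154, 0.156, −0.305 and 0.204, over 0.1 for 3 of 5 numbers. The same 3 Pax7Cre mice correlated best with the miR-501KO mouse of their number. With the replicate block, log2 fold changes were between 0.02 and 0.19, and exact sign flips cannot give a p under 0.0625. The causes of these changes were not tested. Between 34 and 93 reads limit Tnni3.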
